A study of Mus musculus with 6 samples.

Results

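Regions of open chromatin that lean to wild type were taken from ATAC-seq peak lists of the embryonic mouse retina: they were chosen by peak calls alone, as regions with a peak in more wild-type than SE/SE libraries. Peaks of the 6 per-library lists on chromosomes 1 to 19 were merged wherever they shared 1 bp or more, and 416 of the 45562 resulting regions (0.913%) had that pattern. The 6 libraries came from C57BL/6 retinas of stage E14.5 (embryonic day), 3 from Atoh7 +/+ animals (wild type) and 3 from Atoh7 SE/SE animals, in which both copies of the Atoh7 shadow enhancer are mutated. Both genotypes are of the same strain and stage and carry no other labelled allele or agent. Each library is the retinal pair of 1 animal and thus a biological replicate, made from whole retinas with all their cell types. The labels do not say what kind of mutation the shadow enhancer carries.

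In ATAC-seq the Tn5 transposase cuts accessible DNA and inserts sequencing adapters there, so that promoters and enhancers in use appear as peaks. The product of Atoh7 is a proneural transcription factor of the basic helix-loop-helix family that retinal progenitors need in order to form retinal ganglion cells, the neurons that send the optic nerve to the brain. A shadow enhancer acts on the same gene as a primary enhancer, in an overlapping set of cells.

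The genotype contrast chose these regions, so the presence and the strength of their peaks in the 6 libraries are described here and were not tested. The retinal source of the libraries was checked with 7 neural retina markers, among them Pax6, Rax and Six6, and in each of the 6 libraries all 7 had a peak no more than 1 kb from an end of the gene. Markers of tissues beside the neural retina were also met. Of 17 pigment epithelium and ciliary margin genes, 8 had such a peak in each wild-type library and 10 to 11 in the SE/SE libraries, and of 15 endothelial genes 3 to 5 did in wild type and 6 to 7 in SE/SE. Lens markers had one for 5 to 6 of 21 genes in the wild-type libraries and for 6 in those of SE/SE, microglia and blood markers for 3 of 19 in all libraries, and mesenchyme markers for 7 to 9 of 17 in wild-type and 10 to 12 in SE/SE libraries. The part of these cells in the results below was not tested.

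Wild-type libraries held 27873 to 34797 peaks and SE/SE libraries 39115 to 44242, covering 12.25 to 15.11 Mb and 16.91 to 19.39 Mb. Leaning to wild type was therefore the less common direction: 20929 regions (45.9%) leaned to SE/SE and 24217 (53.2%) had a peak in as many libraries of each genotype. Wild-type libraries were amplified for 17, 18 and 19 PCR cycles and SE/SE libraries for 15, 16 and 16, so amplification and genotype cannot be told apart. The read depth behind the lists is unknown. Wild type 2 shared 80.92% of the regions that either library held with SE/SE 1, 81.68% with wild type 1 and 76.26% with wild type 3. Such shares depend on list length, so nearness to a genotype is not read from them. Of the regions of wild type 3, 98.82% were held by wild type 2, and of those of SE/SE 1, 83.66%. Of the regions of wild type 2, 76.96% were held by wild type 3 and 96.11% by SE/SE 1. Results that rest on wild type 2 are given with and without it. In whole tissue, fewer cells with an open region and a less open region in each cell cannot be told apart.

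Few of the leaning regions lie at annotated promoters, and 4 of those that do are shown first. A promoter window here runs from 250 bases before to 50 bases after a RefSeq gene start in GRCm38.p6, the build of the files. Such windows were overlapped by 13 of the 416 regions (3.125%), against 10804 of all regions (23.71%). The following 4 windows are printed from 5′ to 3′ on the strand of the gene, with the bases covered by the leaning region in capitals. They are the 1 promoter touched by a region found in all 3 wild-type and no SE/SE library (Gm46178), the window covered over most of its length (BC107364), and 2 protein-coding genes (Wdr37 and Arid5b).
Gm46178 (chr1:191120652-191120951, plus strand): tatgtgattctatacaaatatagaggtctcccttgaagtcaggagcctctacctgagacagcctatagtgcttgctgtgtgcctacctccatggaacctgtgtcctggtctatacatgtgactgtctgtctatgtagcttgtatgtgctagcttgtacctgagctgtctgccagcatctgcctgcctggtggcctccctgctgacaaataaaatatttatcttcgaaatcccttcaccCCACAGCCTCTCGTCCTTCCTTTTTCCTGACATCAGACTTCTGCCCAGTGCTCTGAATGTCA
BC107364 (chr3:96452257-96452556, minus strand): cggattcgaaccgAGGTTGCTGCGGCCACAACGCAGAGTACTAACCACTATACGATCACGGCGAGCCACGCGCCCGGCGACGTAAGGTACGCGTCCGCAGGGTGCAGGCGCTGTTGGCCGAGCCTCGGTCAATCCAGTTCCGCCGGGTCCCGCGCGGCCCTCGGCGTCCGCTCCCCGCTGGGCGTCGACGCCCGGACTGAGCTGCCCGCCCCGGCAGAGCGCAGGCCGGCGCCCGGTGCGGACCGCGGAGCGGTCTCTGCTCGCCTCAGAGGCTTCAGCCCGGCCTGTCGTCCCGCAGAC
Wdr37 (chr13:8871687-8871986, minus strand): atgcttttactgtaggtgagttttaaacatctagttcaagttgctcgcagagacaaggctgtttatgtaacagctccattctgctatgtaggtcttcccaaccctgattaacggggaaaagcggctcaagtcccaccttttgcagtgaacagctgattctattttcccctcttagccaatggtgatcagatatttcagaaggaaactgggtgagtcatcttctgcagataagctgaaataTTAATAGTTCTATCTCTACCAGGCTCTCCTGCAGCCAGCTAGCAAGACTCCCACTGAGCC
Arid5b (chr10:68278677-68278976, minus strand): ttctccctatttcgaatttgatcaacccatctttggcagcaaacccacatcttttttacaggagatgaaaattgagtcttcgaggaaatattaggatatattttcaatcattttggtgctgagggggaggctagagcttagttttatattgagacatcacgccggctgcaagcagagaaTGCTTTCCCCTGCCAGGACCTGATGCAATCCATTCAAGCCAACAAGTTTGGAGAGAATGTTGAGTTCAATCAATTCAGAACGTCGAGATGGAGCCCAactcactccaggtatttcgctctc

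Gm46178 is a long noncoding RNA gene, and the region over it covers the last 62 bases of the window, that is the start site with bases on either side. BC107364 lies in an array of transfer RNA genes, and 287 of its 300 bases are covered, with a GC content of 72.33% against a median of 52.67% over all windows. The window of Wdr37, a WD-repeat protein gene, is covered over 60 bases at its end, and that of Arid5b, a gene for an AT-rich DNA-binding protein, over 97 bases. Basic helix-loop-helix factors bind E-boxes, and 3 of these motifs were looked for on both strands. The first was CAGCTG, which reads the same on both strands, and the second was CAGATG. The third was CATATG, and the core motif of homeodomain factors, TAATTA, was added. Gm46178 has a CAGATG match outside the capitals and Wdr37 a CAGCTG match outside them, while 0 of the windows touched by leaning regions have a match inside the covered bases. Over all 32851 promoter windows, the first of these motifs is found in 16.3%, the second in 17.15%, the third in 3.915% and the homeodomain core in 5.291%. A match is a description of these letters, not a binding site.

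Most leaning regions rested on a single library. Writing the number of wild-type and then of SE/SE libraries with a peak, 280 regions (67.31%) were 1/0, 42 were 2/0, 15 were 3/0, 29 were 2/1, 14 were 3/1 and 36 were 3/2. The lean was by 1 library in 345 of 416 regions (82.93%), by 2 in 56 and by 3 in 15. No SE/SE library had a peak in 337 of them. The 15 regions of class 3/0 make up 0.0329% of all regions, while the opposite pattern, a peak in all 3 SE/SE and no wild-type library, was found in 3744 (8.22%).

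**Figure D1:**
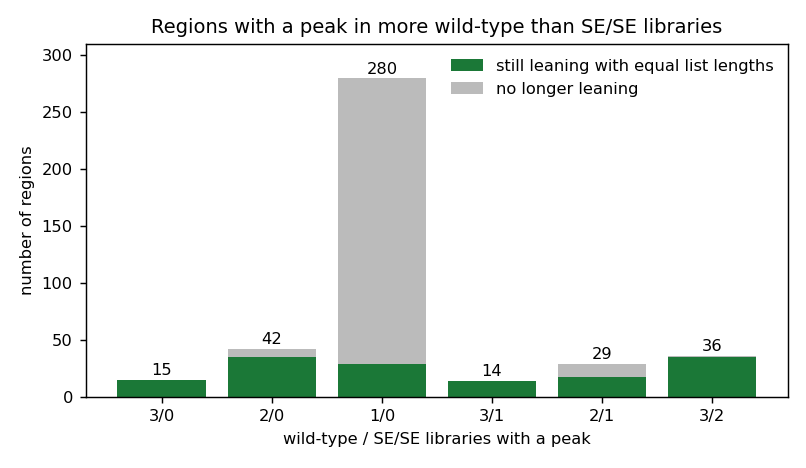
Number of regions leaning to wild type (vertical axis) in each class of wild-type and SE/SE libraries with a peak (horizontal axis), with the regions that still lean when every list is shortened to its 27873 highest peaks in green and the others in grey. The 280 regions of class 1/0 are the tallest bar, of which 29 remain. All 15 of class 3/0 remain, as they must, since the list of wild type 3 sets the length and loses no peak.

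Wild type 2, the longest of the wild-type lists, supplied most of the single-library regions. Of the 280 regions of class 1/0, 210 (75%) had their peak in wild type 2, 62 in wild type 1 and 8 in wild type 3. Over all classes, 324 leaning regions had a peak in wild type 2, 187 in wild type 1 and 106 in wild type 3, the order of the lengths of the lists. Without wild type 2, 206 of the 416 regions still leaned to wild type, against 354 without wild type 1 and 408 without wild type 3. Leaving out an SE/SE library left 400 to 411, and leaving out wild type 2 and SE/SE 1 together left 170. Leaning was judged here by the share of each genotype's libraries. Without 1 wild-type library, only its class 1/0 regions can be lost. Without 1 SE/SE library, only class 3/2 regions that lack a peak in it can be lost. The counts for single libraries thus restate the classes. By definition the 15 regions of class 3/0 keep their pattern whichever library is left out, so these counts say nothing about their stability.

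Among regions with 2 wild-type libraries and no SE/SE library, wild type 1 and 3 were the pair in 20, wild type 1 and 2 in 15, and wild type 2 and 3 in 7. Where all 3 wild-type libraries and 1 SE/SE library had a peak, that library was SE/SE 1 in 11 of 14 regions, SE/SE 2 in 2 and SE/SE 3 in 1. In class 3/2 the SE/SE library without a peak was SE/SE 1 in 16 regions, SE/SE 3 in 15 and SE/SE 2 in 5. In class 2/1 the single SE/SE peak came from SE/SE 2 in 13 of 29 regions and from SE/SE 1 and SE/SE 3 in 8 each, so no SE/SE library led in both classes. For comparison, peaks found in 1 SE/SE library alone made up 356 regions in SE/SE 1, 1735 in SE/SE 2 and 3056 in SE/SE 3.

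The leaning regions were narrow and their peaks ranked low. The authors' signal value of each peak was turned into a percentile, the share of the peaks in the same list with a value no higher, since values are not comparable between lists. Averaged over the wild-type libraries with a peak, the percentile had a median of 8.012 over the 416 regions, against 43.53 over all regions, and the median width was 139 bp (71 to 1377 bp) against 287.5 bp. The highest wild-type −log10 p of a region had a median of 4.183, against 5.455 over all. In 299 of the 416 (71.88%) every wild-type peak had a signal value under 50, where the lowest value in any list is 20. Over all 45562 regions the count was 5118 (11.23%), a share that includes regions with no wild-type peak as not under 50. Those regions (5147, 3798 and 3744 with a peak in 1, 2 and 3 SE/SE libraries) are left out of the medians of percentile and −log10 p. The 11.23% is therefore too low for a like comparison. Only 10 leaning regions had a wild-type peak above percentile 50 of its list. They are 4 regions of class 3/0 (both at Atoh7 and 1 each at Cyp8b1 and Snd1), a second region inside Snd1, a gene-poor site on chromosome 6 and 4 regions, at Gm40035, Dlgap2, Gm51877 and P4ha2, that also had SE/SE peaks.

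Rank rose with the number of wild-type libraries. The median percentile was 5.423 in class 1/0, 11.35 in 2/0 and 19.0 in 3/0, with median widths of 116, 175 and 183 bp. Regions that had SE/SE peaks too stood at similar percentiles in both genotypes: 8.726 in wild-type and 8.53 in SE/SE libraries for class 2/1, 18.04 and 15.67 for 3/1, and 21.33 and 19.73 for 3/2. In 35 of the 79 regions with any SE/SE peak, the mean SE/SE percentile was above the wild-type one, and the share over all regions was not computed. The SE/SE lists are longer, and SE/SE percentiles were the higher ones in the comparison classes that follow. Similar percentiles are therefore not read as equal strength. Just outside the rule, the 352 regions with 1 library of each genotype had median percentiles of 5.955 (wild type) and 10.02 (SE/SE) and a width of 152 bp, and the 163 regions with 2 of each had 9.39 and 19.25 and a width of 183 bp. In wild type the peaks of class 1/0 thus ranked near those of regions with 1 library of each genotype, and those of class 2/1 near regions with 2 of each. Class 3/2 is to be set beside the regions shared by all 6 libraries, and its peaks ranked far below theirs. Regions shared by all 6 libraries, 23702 of 45562 (52%), had medians of 60.2 and 70.66 and a width of 603 bp.

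Peak summits within a region lay close together. Among leaning regions with a peak in 2 or 3 wild-type libraries, the distance between the outermost wild-type summits had a median of 25 bp, against 21 bp over all regions. In class 3/0 it had a median of 27 bp and ran from 1 to 113 bp.

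At Atoh7 both regions of class 3/0 lie outside the gene, 10151 and 9118 bp from its nearer end. The farther one, chr10:63089257-63089634, had signal values of 406.9, 427.4 and 268.2 in wild type 1, 2 and 3, at percentiles 62.57, 62.64 and 52.28. All 3 values lie above the middle of their lists, the wild-type summits fall within 1 bp of each other, and the 3 SE/SE libraries have no peak there. For the nearer one, chr10:63090131-63090667, the values were 209.4, 271.7 and 98.63, at percentiles 47.77, 53.34 and 30.6, with summits within 27 bp. Wild type 3 was the lowest of the 3 libraries in both regions. Whether either region overlaps the mutated shadow enhancer was not tested. If one does, a missing SE/SE peak cannot tell altered DNA from less accessible DNA. Within 20 kb of each Atoh7 region lie 4 other regions. They are the other of the pair, 2 with a peak in all 6 libraries and 1 that leans to SE/SE.

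Near Cyp8b1, which encodes a sterol hydroxylase of bile acid synthesis made in the liver, lies the widest region of class 3/0. The 1105 bp at chr9:121930328-121931432, 14023 bp from the gene, had signal values of 174, 242.4 and 524.3 in wild type 1, 2 and 3, at percentiles 43.84, 51 and 67.96. The peak in wild type 3 is the highest-ranked of the class, and wild type 1 was the lowest library here. A narrower region next to it, chr9:121930033-121930259, had a peak in wild type 3 alone with a value of 69.83. Both lie in 1 peak of the authors' joint wild-type list with a signal value of 9931 (rank 3750), and the joint SE/SE list also has a peak there, with 4037 (rank 16617). SE/SE chromatin was thus called open at this site in the joint list although in none of the 3 SE/SE libraries.

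Inside Snd1, which encodes an RNA-binding protein with Tudor and nuclease-like domains, 2 leaning regions lie close together, 6872 and 5502 bp from the nearer gene end. The region at chr6:28928027-28928290 had values of 29.52, 108.9 and 249 in wild type 1, 2 and 3, at percentiles 6.682, 33.12 and 50.73, a wide spread for 1 genotype. Its neighbour, chr6:28929156-28929660, had a peak in wild type 3 alone, with a value of 244.7 at percentile 50.37. Wild type 3 was again the highest library. In the joint lists the first region's peak stood at percentile 80.93 (wild type) and 51.54 (SE/SE), and the neighbour's at 80.75 and 39.94.

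Ranbp3l, a gene related to the Ran-binding nuclear transport factor genes, holds a region of class 3/0 at chr15:9015790-9016038, 47841 bp from its nearer end, with values of 126.5, 54.14 and 60.22 and percentiles 36.57, 18.11 and 20.28. Wild type 1 was highest there, and the only peak of an adjoining region also came from wild type 1. On chromosome 16, chr16:3115038-3115220 lies 477178 bp from the nearest protein-coding gene, the olfactory receptor gene Olfr161, and had values of 96.18, 37.39 and 103.3 at percentiles 30.61, 10.92 and 31.55. With these 2 the regions above percentile 30 in any library come to 6 of the 15.

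Peaks of the other 9 regions all ranked under percentile 26. Near Batf3, a transcription factor gene of dendritic cells, chr1:191120890-191121061 had values of 68.9, 72.62 and 34.4, and it is this region that covers the start of Gm46178. D430019H16Rik had its region 17600 bp away at chr12:105436097-105436256, with 76.87, 64.73 and 38.16. For both, wild type 3 was the lowest library and all 3 libraries had values above 34, well over the minimum of 20. The vomeronasal receptor gene Vmn2r129 had values of 58.03, 36.8 and 53.46 at chr4:156356797-156357035, and a region 960627 bp from the glucose-6-phosphate dehydrogenase gene G6pd2, chr5:60848086-60848216, had 39.49, 28.63 and 47.03. In these 2 regions wild type 2 was the lowest, with no other region of the series within 20 kb of either.

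Scaf8, a gene for a protein that binds RNA polymerase II, has its region 78101 bp away at chr17:3036696-3036871, with values of 44.74, 65.33 and 40.6, in a group of leaning regions described below. Kcnip1, which encodes a potassium channel-interacting protein, holds one at chr11:33754919-33755063 with 26.21, 58.72 and 28.1. The myosin light chain kinase gene Mylk lies 2099 bp from chr16:34742967-34743100, with 45.81, 53.02 and 21.21. The lens crystallin gene Cryaa lies 11236 bp from chr17:31692966-31693093, with 59.8, 29.42 and 21.35. Finally, chr10:58223130-58223454 in LOC100504180, next to the double homeobox gene Duxf3, had 51.83, 20.68 and 23.3. The last 3 of these include a peak within 2 units of the list minimum in wild type 3 or wild type 2. Over the whole class, only 4 of 15 regions had a value of 50 or more in every wild-type library.

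**Figure D2:**
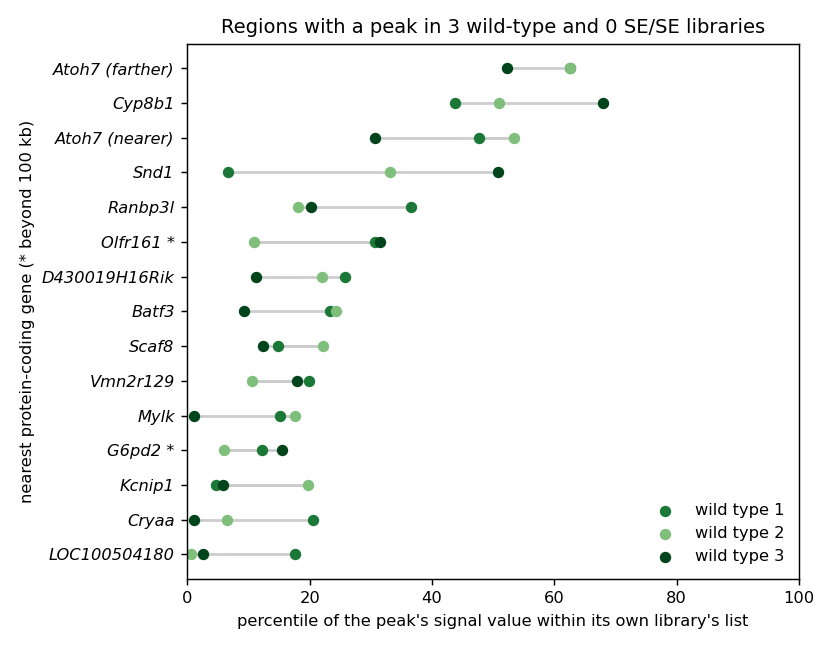
Percentile of the peak's signal value within its own library's list (horizontal axis) for the 15 regions with a peak in 3 wild-type and 0 SE/SE libraries (rows, by nearest protein-coding gene), with 1 point per wild-type library and a line over their range. Only the farther Atoh7 region has all 3 points above 50, and 9 regions have all points under 26.

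Classes 2/0 and 1/0 also had a few higher peaks. The highest of class 2/0 by mean percentile, chr6:10690635-10690919, lies 1209453 bp from the nearest protein-coding gene, Ndufa4, and had values of 73.8 in wild type 2 and 278.1 in wild type 3, at percentiles 24.75 and 53.14. Smgc, a salivary gland protein gene, had 3 regions of class 2/0 between 45934 and 47962 bp from it, each with a peak in wild type 1 and wild type 3: 43.29 and 105.3, 184.5 and 34.03, and 166.3 and 88.88. Wild type 2 had no peak at any of these 3 sites although its list is the longest of the genotype. A region 4594 bp from the doublecortin-domain gene Dcdc2a had values of 168.6 and 76.65 in the same 2 libraries. The same pair held the regions at Fam107a (70.55 and 53.71), at chr6:31803322-31803514 beyond 100 kb from any protein-coding gene (54.68 and 97.15), and inside the centrosomal gene Sfi1 (75.85 and 38.93). A region near Insig1, a gene of cholesterol control, paired wild type 1 with wild type 2 (56.21 and 45.2). In class 1/0 the highest after Snd1 were chr18:85636345-85636512 (84.92, wild type 2), a region inside the collagen gene Col6a6 (83.28, wild type 1), chr16:79449766-79450041 (76.55, wild type 2) and chr1:145570023-145570400 (75.42, wild type 2).

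Regions that leaned to wild type despite SE/SE peaks included some of the strongest of the 416. At Gm40035, chr2:181917405-181918101 had values of 291, 271.1 and 186.8 in wild type 1, 2 and 3 and of 96.74 and 47.75 in SE/SE 1 and 2, so that the percentiles of 44.38 to 55.01 in wild type lay above those of 14.38 and 29.23 in SE/SE. Inside Dlgap2, a postsynaptic scaffold gene, chr8:14306748-14307365 had 365.4, 124.4 and 162.8 in wild type and 55.17 and 44.41 in SE/SE 1 and 2, at percentiles 36.1 to 59.97 against 12.97 and 17.31. P4ha2, a gene for a collagen prolyl hydroxylase subunit, lies 8382 bp from chr11:54140050-54140651, with 319.1, 122.2 and 230.9 in wild type and 112.9 in SE/SE 1. At P4ha2 the single SE/SE percentile was 32.71 and the lowest wild-type one 35.73. These regions were named for their high wild-type percentiles, so nothing is read from their distance to SE/SE. Over all of class 3/2 the median percentiles were 21.33 in wild-type and 19.73 in SE/SE libraries. The region in Rsbn1l had wild-type percentiles of 30.59 to 44.01 and 11.87 in SE/SE 1, while at Gm32584, 28.41 to 39.3 stood beside 28.45. For 2 neighbouring regions on chromosome 3, at chr3:8245277-8245587 and chr3:8246197-8246507, wild-type percentiles ran from 25.56 to 38.69 and SE/SE ones from 14.7 to 19.04. Class 2/1 was led by a region inside the propionyl-CoA carboxylase gene Pcca, chr14:122568923-122569110, with 166.8 and 132.6 in wild type 1 and 3 and 33.41 in SE/SE 3. It was followed by one inside the ceramidase gene Acer2, with 93.01 and 37.61 in wild type 1 and 2 and 82.96 in SE/SE 2.

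Leaning regions lay away from genes more often than regions at large. Within 1 kb of an end of a protein-coding gene were 58 of the 416 (13.94%), against 30.74% of all regions. Inside such genes beyond that distance were 137 (32.93%, all regions 35.78%), and outside them 221 (53.12%, all regions 33.49%). More than 100 kb from any protein-coding gene end were 99 (23.8%, all regions 15.45%). Among regions leaning to SE/SE, 42.43% lay outside genes and 20.06% beyond 100 kb. Among those found in 1 library of each genotype the shares were 46.59% and 23.86%. A low share near gene ends was not particular to this direction: it was 12.23% among regions leaning to SE/SE, 10.63% among those found in all 3 SE/SE libraries alone and 13.64% among those found in 1 library of each genotype. Gene-end regions among the 416 included ones at the Mediator subunit gene Med16, the neurite growth gene Nrn1, the ribosomal protein gene Rpl4 and the intermediate filament gene Nes, the last 2 chosen after their values were seen.

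Stretches of repeated genes and the low-coordinate ends of chromosomes held these regions more densely than other places. Mouse chromosomes have their centromere at one end, and coordinates in the build start there. Of the 216 regions below 3.5 Mb, 39 leaned to wild type (18.06%), which is 9.375% of the 416 against 0.4741% of all regions. More of these 216 regions, 60 (27.78%), leaned to SE/SE. Those leaning to wild type came from chromosome 11 (18 of 50 such regions), 17 (10 of 30), 4 (7 of 16), 16 (2 of 4), 3 and 6 (1 each). Outside those ends, 15 of 383 regions within 1 kb of a transfer, ribosomal or small nuclear RNA gene leaned to wild type (3.916%) and 90 to SE/SE (23.5%). At the other places, 18.27% to 59.07% leaned to SE/SE, and those leaning to wild type were 54 of 13861 within 1 kb of a protein-coding gene end (0.3896%), 121 of 16202 inside protein-coding genes (0.7468%), 121 of 10359 outside genes within 100 kb (1.168%) and 66 of 4541 beyond that (1.453%). The bounds of these places were chosen after the values were seen.

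**Figure D3:**
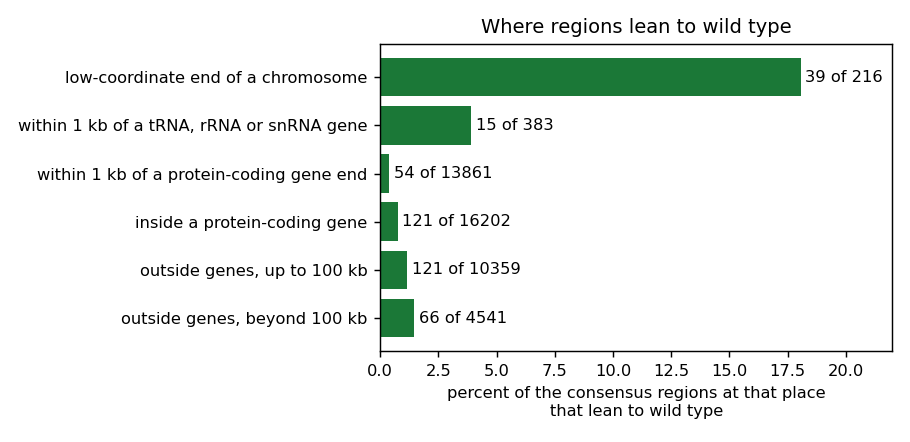
Percent of the consensus regions at each kind of place that lean to wild type (horizontal axis), with the number of leaning regions and of all regions beside each bar. The bar of the low-coordinate ends reaches 18.06%, that of the small RNA genes 3.916%, and the others 0.3896% to 1.453%. Regions leaning to SE/SE, 60 and 90 at the first 2 kinds of place, are not drawn.

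Some leaning regions lay close to one another, which was not set beside the spacing of regions at large. Chaining regions no more than 100 kb apart gave 8 groups of 4 or more with 66 leaning regions (15.87% of the 416). In the spans of these groups lay 142 regions in all, of which 46.48% leaned to wild type and 13 regions leaned to SE/SE. Each span starts and ends with a leaning region by construction, so this share and those of the single groups below are raised by the choice. A further 19 groups of 2 or 3 held 40, and 310 leaning regions (74.52%) stood alone. The largest group, chr11:3101202-3198546 at Sfi1, which encodes a centrin-binding protein, had 18 leaning regions of 32. Of these 18, 17 had a peak in wild type 1, 13 in wild type 2, 11 in wild type 3, 12 in SE/SE 1, 4 in SE/SE 2 and 1 in SE/SE 3, so SE/SE 1 stood with the wild-type libraries there. The group at Scaf8, chr17:3010892-3080478, had 10 of 16, with 6 to 7 in each wild-type library and 3, 1 and 0 in the SE/SE libraries. A group near the vomeronasal receptor gene Vmn1r2, chr4:3050089-3177012, had 7 of 15, and all 7 had a peak in wild type 1.

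Small RNA genes lie in 3 of the other 5 groups. On chromosome 6, chr6:47656583-47788216, a span with 2 Y RNA genes and the predicted genes Gm40363 to Gm40369, had 14 leaning regions of 31, and 12 of the 14 had a peak in wild type 1 against 2 in wild type 2 and 3 in wild type 3. This group leaned on 1 library. The 5S ribosomal RNA genes at chr8:123557451-123598536, 24 annotated in the span, had 5 of 23, with all 5 in wild type 1. The transfer RNA array around BC107364 and Hjv, chr3:96452251-96501633, with 10 transfer RNA and 3 small nuclear RNA genes, had 4 of 12, and 3 of these 4 had peaks in all 3 wild-type libraries and in SE/SE 2 and 3. The Duxf3 group, chr10:58221638-58239674, had 4 of 7, all with peaks in wild type 2 and 3, and one at Gm51573 and Gm51591, chr8:55349957-55373195, had 4 of 6 with 0 SE/SE peaks among the 4. Where genes of an array are alike in sequence, reads may match several copies, and their treatment was not given in the sources used here, so positions there are uncertain. The likeness of the copies was not measured.

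**Figure D4:**
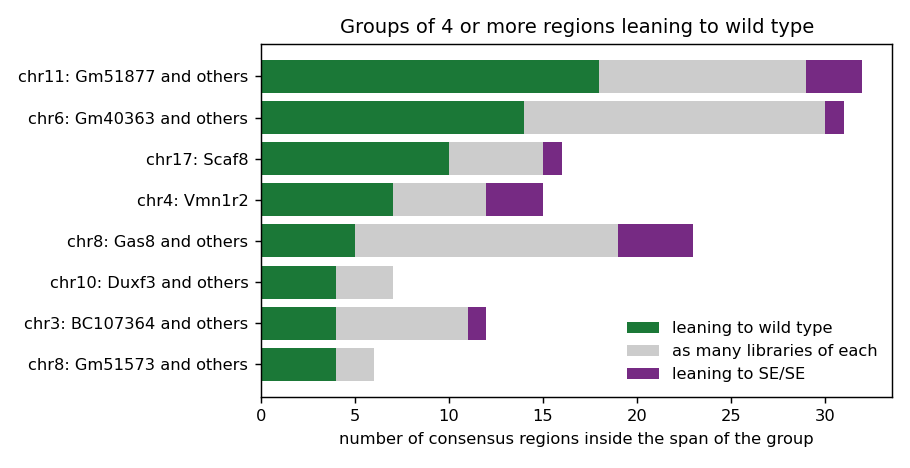
Number of consensus regions inside the span of each of the 8 groups of 4 or more leaning regions (horizontal axis), split into those leaning to wild type (green), those in as many libraries of each genotype (grey) and those leaning to SE/SE (purple). Leaning regions number 18 of 32 in the group on chromosome 11 and 5 of 23 in the group of ribosomal RNA genes on chromosome 8. The first and last region of each span lean to wild type by construction.

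The share of leaning regions at the listed genes was near that at all genes. The 12 gene lists for retinal cell types, neighbouring tissues and the cell cycle hold 291 genes, of which 252 had a region, and 8 of their 1335 regions leaned to wild type (0.5993%), against 317 of 38521 regions with a protein-coding gene within 100 kb (0.8229%). In the neurogenic transition list, which covers genes switched on as progenitors leave the cell cycle, Atoh7 was the 1 gene of 28 with leaning regions, and both were the class 3/0 regions given above. The retinal progenitor list, with Pax6, Rax, Lhx2 and the Notch genes, had 0 of its 389 regions and 0 of its 41 genes leaning to wild type. The photoreceptor, pigment epithelium, endothelial, microglia and mesenchyme lists also had 0, of 31 to 65 regions each. Lists of that size would hold few or none at the background share, so nothing is read from their zeros.

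Of 51 retinal ganglion cell genes, 3 had a leaning region. Nrn1 had one of class 1/0 288 bp from its end with 52.77 in wild type 2, and the transcription factor gene Ebf3, which is also on the amacrine and horizontal list, had one inside it with 20.07 in wild type 2, at the very bottom of its list. Bhlhe23, a basic helix-loop-helix gene of bipolar cells, had one of class 1/0 with 32.22 in wild type 2, and the S-phase enzyme gene Tk1 one with 28.22, also in wild type 2. The leaning regions of Nrn1, Ebf3, Bhlhe23 and Tk1 thus all came from wild type 2 alone. The share that leaned to SE/SE ran from 29.23% in the cell cycle list to 72.31% in the mesenchyme list, with 52.19% for ganglion cell and 52.76% for neurogenic genes, beside 43.43% of all regions near a gene.

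The joint lists, which the authors named for a genotype, put most of these regions in both genotypes. In the joint wild-type list of 104991 peaks all 416 were covered, and in the joint SE/SE list of 120772 peaks 413 were. The 3 without a joint SE/SE peak (0.7212% of the 416) were both Atoh7 regions and chr6:10690635-10690919, and they are the only 3 of all 45562 regions (0.006584%) with that pattern. The joint lists describe the same animals as the single lists, so they give no independent support.

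Where both joint lists had a peak, its rank was mostly higher in wild type. Of 413 regions, 291 (70.46%) overlapped a peak with a higher percentile in the joint wild-type than in the joint SE/SE list, while over all regions the share was 8.505%. Regions just outside the rule lay between, with 33.52% for 1 library of each genotype and 51.53% for 2 of each. By class, the joint wild-type percentile was the higher one in 13 of 13 regions of class 3/0, 39 of 41 of 2/0, 171 of 280 of 1/0, 13 of 14 of 3/1, 24 of 29 of 2/1 and 31 of 36 of 3/2. The median was 75.83 in the joint wild-type and 71.96 in the joint SE/SE list over the 416, and 78.87 and 60.87 in class 3/0.

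Some single sites differed far more. In class 3/0 the gap was widest at LOC100504180, ahead of Snd1. There the joint wild-type peak had a value of 18370 (percentile 99.6) and the joint SE/SE peak 1152 (69.2). The region's own peaks ranked at percentiles 17.59, 0.5863 and 2.554 in wild type 1, 2 and 3, far below its joint rank. The joint wild-type peak there runs from 58222621 to 58227101 and covers ground beyond the region. The joint SE/SE peak runs only from 58222640 to 58223506. Since the signal value grows with width, the gap compares unlike spans. At Olfr161 the joint percentiles were 76.12 and 60.87, at Ranbp3l 84.14 and 73.24, at Batf3 71.57 and 61.99 and at Cryaa 65.09 and 54.26. The closest of the 13 was Scaf8 with 85.51 and 81.69. Among the listed genes of class 1/0, the joint SE/SE peak ranked higher at Ebf3 (79.21 and 80.82) and Nrn1 (81.92 and 82.28), and the joint wild-type peak at Bhlhe23 (71.09 and 66.19) and Tk1 (77.02 and 76.02). In 109 of the 416 regions (26.2%) the joint wild-type peak also covered a region that all 6 libraries shared, and then its rank is not that of the leaning region alone. This held for 1 of 15 regions of class 3/0, the one at LOC100504180.

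**Figure D5:**
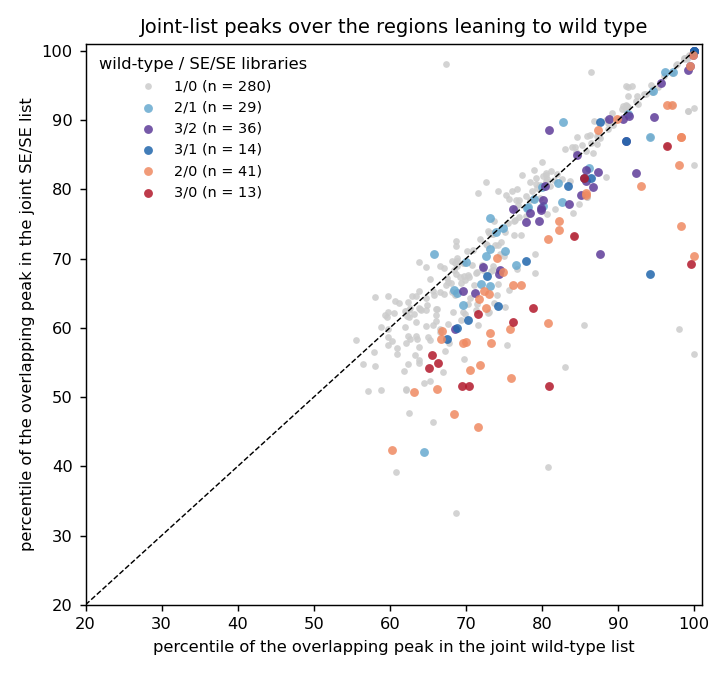
Percentile of the overlapping peak in the joint wild-type list (horizontal axis) and in the joint SE/SE list (vertical axis) for the 413 leaning regions with both, coloured by the number of wild-type and SE/SE libraries with a peak. The dashed line marks equal percentiles, and 291 of the 413 points, among them all 13 of class 3/0, lie below it.

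Many leaning regions adjoin a region shared by the libraries. A region shared by all 6 libraries lay within 1 kb of 113 of the 416 (27.16%), against 14.99% of all regions. The share was 23.3% for regions in 1 library of each genotype, 24.54% for those in 2 of each and 15.94% for those leaning to SE/SE. Leaning regions outside the groups of 4 or more stood at 23.43%, and those inside them at 46.97%. Of the 337 leaning regions with no SE/SE peak, 122 had a region with an SE/SE peak within 1 kb. Among all 45562 regions, 12108 had another region with an SE/SE peak within that distance. In class 3/0, 3 of 15 had one that near, at LOC100504180 (205 bp), Scaf8 (207 bp) and Cryaa (303 bp). For the other 12 the distance ran from 1916 bp at Mylk to 247517 bp at the region nearest to G6pd2, and it was 8540 and 7507 bp for the Atoh7 regions and 49297 bp at Cyp8b1.

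Shortening every list to its 27873 highest peaks, the length of the shortest list, left 145 of the 416 regions (34.86%) leaning to wild type. Of the other 271, 270 had no peak left, 1 had as many libraries of each genotype, and 0 leaned to SE/SE. By class, 15 of 15 regions stayed in 3/0, 35 of 42 in 2/0, 29 of 280 in 1/0, 14 of 14 in 3/1, 17 of 29 in 2/1 and 35 of 36 in 3/2. The shortest list is that of wild type 3, which therefore lost no peak. Any region with a wild type 3 peak and no SE/SE peak had to stay, so the outcome for class 3/0 was fixed in advance. The lowest signal value kept was 37.3, 59 and 20.01 in wild type 1, 2 and 3 and 94.55, 124.4 and 134.9 in SE/SE 1, 2 and 3. Equal length therefore removes more of the weak peaks from SE/SE than from wild-type lists.

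With equal lists, 2284 regions (5.01%) leaned to wild type and 4991 (11%) to SE/SE. Of the 2284, 2139 had not leaned to wild type before, and 772 of those had a peak in all 6 full lists. A peak in all 3 wild-type and no SE/SE library was then found in 97 regions (0.213%), of which 6 were among the original 15, 15 were other leaning regions and 76 were new, beside 428 regions (0.939%) with the opposite pattern. The 6 that kept all 3 wild-type peaks lie at Atoh7 (both), Cyp8b1, Batf3, D430019H16Rik and Scaf8. The regions at Vmn2r129, G6pd2, Snd1, LOC100504180, Ranbp3l, Olfr161, Mylk and Cryaa kept 2 wild-type peaks and the one in Kcnip1 kept 1. Among listed genes, Nrn1, Ebf3, Bhlhe23 and Tk1 did not keep their leaning regions, while those of Atoh7 and Cryaa, of class 3/0, had to stay.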

How the data were processed

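The ATAC-seq data are 8 deposited narrowPeak lists: 6 of single libraries and 2 joint ones that bear the name of a genotype. Per the submitters' processing notes the build was GRCm38 (mm10) of the mouse, and the tools were Genrich 0.5, BWA, cutadapt, limma and bedtools 2.27.0, whose roles and order those notes leave out. The filtering of reads and the making of the joint lists were not given in the sources used here. For every peak the authors deposited a score, a signal value and a −log10 p-value. Dividing the signal value by the width of the peak and multiplying by 1000 gave the score, within 1 and with a cap at 1000, in 100% of the peaks, so the authors' signal value grows with width and was used only to rank peaks within a list (chromosomes 1 to 19, X and Y). No read counts were analysed and depth is unknown, so no interval for a peak's value is given.

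Peaks on chromosomes 1 to 19 sharing 1 bp or more were merged into regions, and a library had a region if it had a peak in it. Positions count from 1. Distances run from a region to the nearer end of a gene in the RefSeq table for GRCm38.p6 (21900 protein-coding genes), which gives no strand or exons, and promoter sequences are those of RefSeq for the same build. Named are the nearest gene within 100 kb of every 3/0 region, of the highest-ranking 10 regions of class 2/0 and 5 of each other class, genes with several leaning regions and genes of the fixed lists. Some genes that meet these criteria are not reported here. The members and lists were chosen with earlier results of these data known. Since the genotype contrast chose the regions, no test was made and counts stand beside those over all regions. Alternatives covered list length, merging, overlap, a signal minimum, chromosome X, the gene distance and each library left out. Scripts ran in Python 3.11.15 (pandas 2.3.3, numpy 2.4.6, scipy 1.17.1 and matplotlib 3.10.9), and the merging and counting were tested on simulated data.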

Additional observations from a re-analysis of the deposited data

How the results depend on the processing

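No paired analysis was possible because the values come from no test. Of 67 alternative values, 41 stayed within 1.5 times a count or within the exact 95% binomial interval of a percent, and 26 did not. These counts and percents have no direction that could be reversed. The cause of each move was not tested unless it follows from the alternative itself. The 416 leaning regions became 2284 with equal list lengths and 246 with a signal value of at least 50, and the 15 regions of class 3/0 became 97 and 7. Without either of wild type 2 and SE/SE 1, an alternative chosen after seeing the data, the counts were 182 and 49. Leaving out 1 library, with leaning judged by the share of each genotype's libraries, gave 266 to 886 leaning regions and 16 to 35 with peaks in all of the wild-type and none of the SE/SE libraries. The count was 692 without wild type 1, 266 without wild type 2, 886 without wild type 3, 717 without SE/SE 2 and 769 without SE/SE 3, and the class 3/0 count was 35 without wild type 2, 30 without wild type 3 and 26 without SE/SE 1. The share within 1 kb of a gene end, 13.9%, was 8.64% with peaks joined across gaps of up to 200 bp, 8.94% with a signal value of at least 50 and 26.9% within 5 kb, and 13.4 to 16.5% with 1 library left out. The share without a joint SE/SE peak, 0.721%, was 0.131% with equal lists, where the regions number more, and 0.339 to 1.13% with 1 library left out. The share at low-coordinate chromosome ends, 9.38%, was 2.5% with equal lists, 4.42 to 13.9% with 1 library left out (5.35% without wild type 1, 4.85% without wild type 3, 5.72% without SE/SE 2 and 4.42% without SE/SE 3), 20.3% without wild type 2 and SE/SE 1, and 1.14% without the 8 groups of 4 or more regions (also added). Unknown depth limits all of these: a missing peak is a missing call, not closed chromatin.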

Other observations

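Chromosome X lies outside the rule. Counting it as well gave 428 leaning regions in place of 416, with 15 of class 3/0 in both cases, and 6 regions without a joint SE/SE peak in place of 3.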
